A study of Homo sapiens with 12 samples.

Results

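The 7 transcripts that the mitochondrial genome encodes for respiratory complex I, MT-ND1, MT-ND2, MT-ND3, MT-ND4, MT-ND4L, MT-ND5 and MT-ND6, were followed in HEPM cells, an established human line of embryonic palatal mesenchyme. They were found by symbol among the 63241 genes of the deposited table, and each symbol matched 1 gene. All cells carried transfected plasmid DNA encoding MSX1, which is a homeobox factor needed for palate and tooth development, and RNA was taken at 6 h. In 3 of the groups an arginine of MSX1 had been replaced, by serine in R157S, by lysine in R157K and by phenylalanine in R157F, and the remaining group received wild-type MSX1 (WT). Each of the 4 groups has 3 libraries, 12 in all, and the labels call them overexpression. Every group therefore carried an MSX1 plasmid, and cells without one were not analysed here. Whether the libraries of a group were separate cultures is not stated in the labels, and the p-values therefore reflect only library-to-library spread, which may be technical. The series concerns methylation of MSX1 by the arginine methyltransferase PRMT1, and the comparisons ask how transcript levels differ when that residue is another amino acid.

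Complex I, NADH dehydrogenase, is the entry point of electrons from NADH into the respiratory chain, and it pumps protons across the inner mitochondrial membrane. Its hydrophobic core is encoded in the mitochondrial genome and the remaining subunits in the nucleus, so the complex is assembled from products of both genomes. The mitochondrial genome is transcribed from both strands as long polycistronic RNAs, and most mRNAs are released by excision of the tRNAs between them. MT-ND4L and MT-ND4 have no tRNA between them and are carried by a shared bicistronic mRNA in human cells. MT-ND6 is the only mRNA of the light strand, and its mature form is known to lack the long poly(A) tail of the other mitochondrial mRNAs, and the libraries here were selected for poly(A).

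The sequences below show the reading frames that share RNA or lie end to end, since several comparisons turn on these neighbours. They are GENCODE 29 transcripts on GRCh38, written 5′ to 3′. MT-ND4L (chrM:10470-10766, plus strand) and MT-ND4 (chrM:10760-12137, plus strand) overlap by 7 bases, which are in capitals in both. The whole MT-ND4L transcript of 297 nt is given, because its level separated from that of MT-ND4, followed by the first 30 bases of MT-ND4.
MT-ND4L: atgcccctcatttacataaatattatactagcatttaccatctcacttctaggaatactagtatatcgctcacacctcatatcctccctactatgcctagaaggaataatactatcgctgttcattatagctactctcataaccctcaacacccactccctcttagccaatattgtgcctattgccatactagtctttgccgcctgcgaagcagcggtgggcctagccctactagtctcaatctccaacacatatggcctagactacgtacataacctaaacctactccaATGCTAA
MT-ND4: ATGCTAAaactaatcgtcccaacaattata

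MT-ND3 (chrM:10059-10404, plus strand, 346 nt) lies upstream of MT-ND4L, with 65 bases between them that hold the arginine tRNA gene MT-TR. Its first 297 bases (chrM:10059-10355) are given because it was the member that rose furthest, with the first codon in capitals.
MT-ND3: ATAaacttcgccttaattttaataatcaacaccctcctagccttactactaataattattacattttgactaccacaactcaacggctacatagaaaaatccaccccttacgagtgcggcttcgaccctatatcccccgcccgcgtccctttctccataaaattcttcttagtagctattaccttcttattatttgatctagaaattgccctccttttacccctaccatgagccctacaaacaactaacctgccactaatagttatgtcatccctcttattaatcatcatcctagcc

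MT-ND5 (chrM:12337-14148, plus strand, 1812 nt) and MT-ND6 (chrM:14149-14673, minus strand, 525 nt) are encoded on opposite strands and meet tail to tail with 0 bases between their annotated ends. The last 30 bases of each are given, with the last codon in capitals.
MT-ND5: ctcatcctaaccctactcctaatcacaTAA
MT-ND6: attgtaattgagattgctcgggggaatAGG

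The other members are MT-ND1 (chrM:3307-4262, plus strand, 956 nt) and MT-ND2 (chrM:4470-5511, plus strand, 1042 nt). MT-ND4 has 1378 nt. GC content of the members lay between 40.2% for MT-ND3 and 47.7% for MT-ND1. All 22 mitochondrial tRNA genes of the table were listed at 0 in every library. The nuclear genome holds copies of these genes, and 31 of the 217 MTND pseudogenes listed were above 0 in any library. Together the pseudogenes came to between 0.0272% and 0.0863% of the summed MT-ND level of a library, and the highest value was 17.59 TPM for MTND6P3 in WT replicate 2. How reads shared with these copies were assigned is not given in the sources used here.

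Values are TPM, which divide by a transcript length and are shares of the library total. The submitters name RSEM, and whether the length was reduced by the fragment size of each library is not given in the sources used here. Such a reduction would weigh most on the shortest members, MT-ND4L and MT-ND3 with 297 and 346 nt. Its part in their values was not tested. Read depth cannot be recovered from them and is unknown for every library. In such bulk samples fewer cells of a type and less RNA per cell cannot be told apart, nor can fewer mitochondria per cell. Libraries had 20954 to 22295 genes above 0. All 10 palatal mesenchyme markers averaged at least 1 TPM, with vimentin highest at 8140 TPM, while of 7 epithelial markers only KRT8 reached 1 TPM and of 6 immune markers none did. Summed mesenchyme markers lay between 14909 and 15157 TPM with R157S, 10996 and 13557 with R157K, 15230.0 and 15766 with R157F, and 11511 and 13159 with WT. Of 5 neural markers 3 reached 1 TPM, led by TUBB3 at 201 TPM, and their sums were 213 to 229 TPM with R157S, 179 to 242 with R157K, 250.0 to 278 with R157F and 134 to 208 with WT. Of 5 muscle markers 2 reached 1 TPM, with sums of 7.92 to 9.28 TPM with R157S, 6.59 to 8.84 with R157K, 12.2 to 14.9 with R157F and 7.26 to 8.55 with WT. Summed endothelial markers lay between 9.92 and 11.7 TPM with R157S, 4.97 and 5.18 with R157K, 5.65 and 7.43 with R157F, and 11.8 and 12.2 with WT, and the part of these marker differences in the results below was not tested. MSX1 transcript, from plasmid and endogenous gene together, averaged 451 ± 168 TPM with R157S, 500 ± 146 with R157K, 872 ± 213 with R157F and 337 ± 111 with WT (SD, n = 3 each). In the limma fit described below it was higher with R157F than with WT (log2 1.39, adjusted p = 0.00288), and the libraries did not overlap. The differences with R157S (0.41, adjusted p = 0.335) and R157K (0.58, adjusted p = 0.13) did not pass. Effects of the R157F residue and of the MSX1 level cannot be told apart here.

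The 7 transcripts took between 1.73% and 3.89% of a library, and MT-ND3 and MT-ND4L between 34.8% and 73.0% of their sum. The members together took 1.98% ± 0.0299 of the TPM total with R157S, 2.72% ± 0.27 with R157K, 1.76% ± 0.0552 with R157F and 2.87% ± 0.919 with WT (SD, n = 3 each). WT libraries ranged from 2.11% to 3.89%, which spans the R157K libraries at 2.49% to 3.01%. The R157S libraries at 1.94% to 2.0% and the R157F libraries at 1.73% to 1.83% lay below all WT libraries. MT-ND3 and MT-ND4L, the shortest members, made up 35.9% ± 1.15 of the MT-ND sum with R157S, 71.6% ± 1.34 with R157K, 49.6% ± 4.62 with R157F and 44.6% ± 10.6 with WT. Without these 2 transcripts, the remaining 5 took 1.27% ± 0.0128 of the total with R157S, 0.772% ± 0.079 with R157K, 0.887% ± 0.0559 with R157F and 1.52% ± 0.178 with WT. No test was run on these sums.

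**Figure D1:**
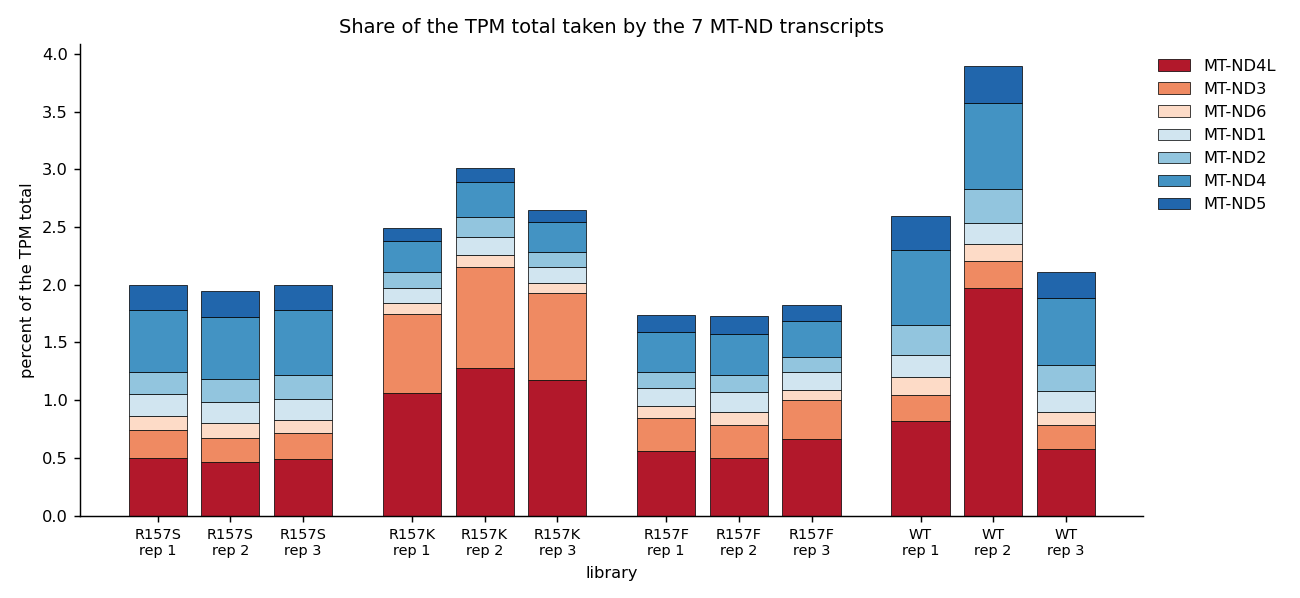
Percent of the TPM total (vertical axis) taken by each of the 7 MT-ND transcripts in each of the 12 libraries (bars, grouped by plasmid). MT-ND4L and MT-ND3, at the foot of each bar, make up 70.3% to 73.0% of the bar in the R157K libraries, and WT replicate 2 has the tallest bar at 3.89%.

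As shares of the 13 mitochondrial mRNAs, the members came to 34.3% ± 0.138 with R157S, 43.0% ± 0.86 with R157K, 34.7% ± 0.624 with R157F and 38.2% ± 2.91 with WT. The order of TPM values, which are per length, also changed. It cannot be read as a ranking of transcript numbers, since MT-ND4L and MT-ND4 share an mRNA yet their TPM ratio ran from 0.863 to 4.59. MT-ND6 also lacks the long poly(A) tail, and the libraries were selected for poly(A). With R157S, MT-ND4 was highest at 5445 ± 199 TPM, followed by MT-ND4L at 4842 ± 220. With R157K, MT-ND4L at 11733 ± 1070 and MT-ND3 at 7709 ± 958 stood above MT-ND4 at 2758 ± 206. With R157F the order was MT-ND4L at 5727 ± 813, MT-ND4 at 3396 ± 217 and MT-ND3 at 3051 ± 299. With WT, MT-ND4L at 11258 ± 7440 and MT-ND4 at 6579 ± 832 were followed by MT-ND5 at 2839 ± 469, with MT-ND3 below MT-ND2. MT-ND6 had the lowest TPM in every library. Several neighbours in these orders had overlapping libraries and cannot be ranked: MT-ND3 and MT-ND5 with R157S, MT-ND2 and MT-ND1 as well as MT-ND5 and MT-ND6 with R157K, MT-ND4 and MT-ND3 as well as MT-ND1, MT-ND5 and MT-ND2 with R157F, and MT-ND4L and MT-ND4 as well as MT-ND5, MT-ND2 and MT-ND3 with WT.

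**Figure D2:**
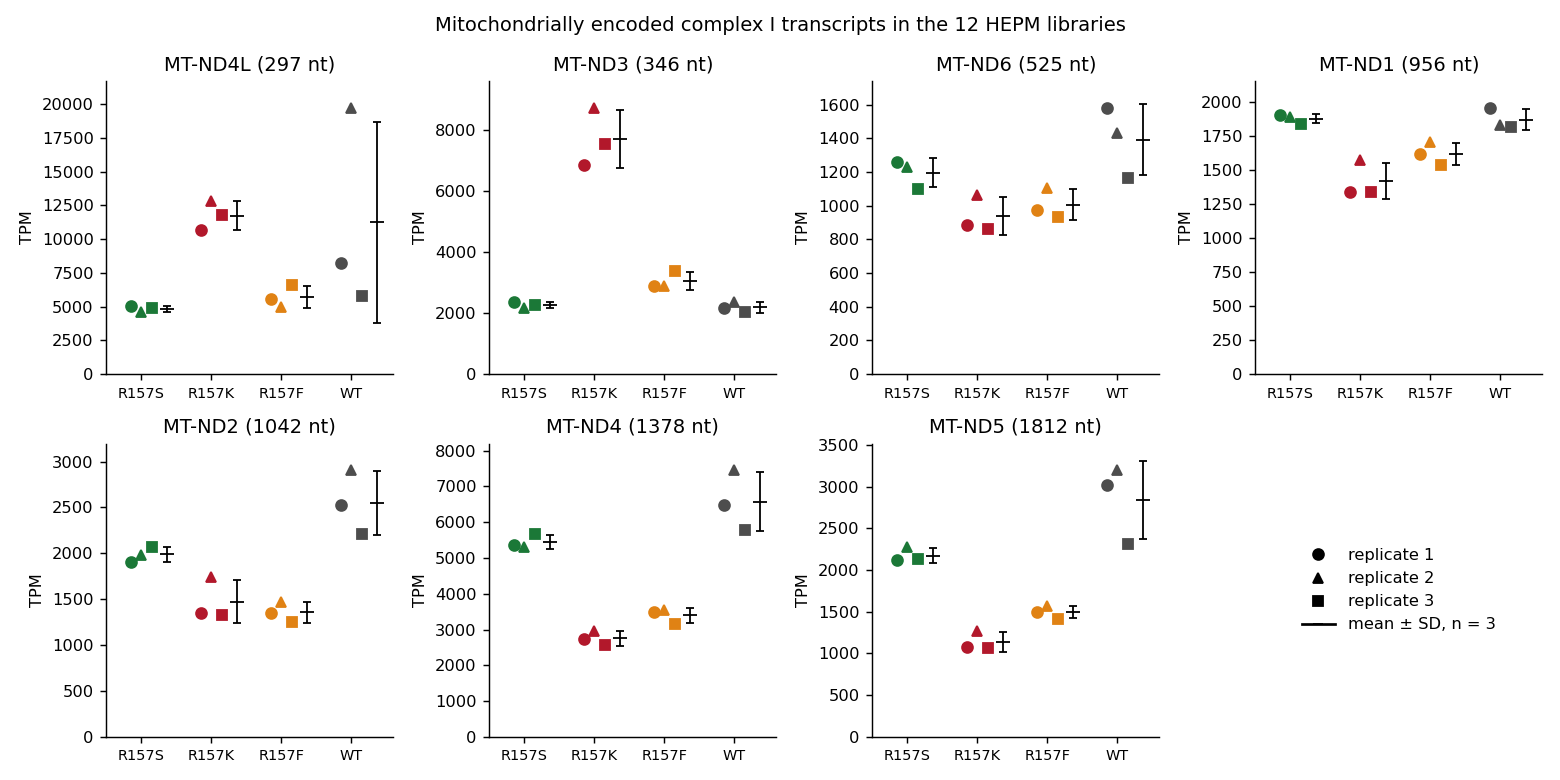
TPM (vertical axes, from 0) of each MT-ND transcript in the 12 libraries, 1 panel per transcript in order of length, with points for replicates and the mean ± SD of each plasmid beside them. MT-ND3 lies between 6843 and 8738 TPM in R157K libraries and at most 3396 TPM in every other library, and MT-ND4L in WT replicate 2 reaches 19737 TPM.

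Changes were tested as differences of log2(TPM + 1) with limma over the 14718 genes that reached 1 TPM in 3 or more libraries, with Benjamini-Hochberg adjustment over all of them and a threshold of 0.05. All 7 members passed this filter. In the test of the 4 plasmids together all 7 members passed, with adjusted p-values from 1.84e-06 for MT-ND3 to 0.00868 for MT-ND4L, in a table where 70.8% of all tested genes passed. With R157K, 1 member rose and 5 fell against WT, in a comparison where 63.6% of all tested genes passed (17.3% higher, 46.2% lower). With R157F, 1 rose and 5 fell, where 58.2% of all tested genes passed (24.4% higher, 33.8% lower). With R157S, 0 rose and 2 fell, where 20.4% of all tested genes passed (7.6% higher, 12.8% lower). The libraries of the variant and of WT did not overlap for 6 members with R157K, 6 with R157F and 4 with R157S, and for 63.5%, 66.3% and 43.6% of all tested genes. The median change of the members was -0.56 with R157K, -0.79 with R157F and -0.27 with R157S, and that of all tested genes was -0.34, -0.08 and -0.01. Set against R157K, R157S had 5 members higher and 2 lower, where 50.1% of all tested genes passed (42.2% higher, 7.9% lower), and the libraries did not overlap for 7 members and 61.3% of all genes. Set against R157F, R157S had 3 members higher and 1 lower, where 5.42% passed (4.31% higher, 1.11% lower), and 5 members and 47.6% of all genes did not overlap. For R157K set against R157F, 2 members were higher and 2 lower, where 29.7% passed (3.3% higher, 26.4% lower), and 4 members and 52.8% of all genes did not overlap. With libraries scaled to the 13 mitochondrial mRNAs, which leaves only the balance among mitochondrial transcripts for the members, 4 members passed with R157K, 4 with R157F and 0 with R157S against WT, where 49.4%, 48.6% and 0.591% of all tested genes passed. Between variants, 7 passed when R157S was set against R157K (46.3% of all tested genes), 0 when it was set against R157F (0.163%) and 6 when R157K was set against R157F (50.6%).

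TPM are shares, and a rescaling of libraries by the median ratio shifted the all-gene median by 0.34 in the comparison of R157K with WT, -0.32 for R157S against R157K and 0.26 for R157K against R157F, and by less than 0.1 in the other comparisons. Changes in these comparisons are therefore also given relative to the median change of all tested genes, while the test is against 0. After that rescaling, 30.9% of tested genes were higher and 30.4% lower for R157K against WT, and 29.3% and 28.7% for R157F against WT. It was 9.81% and 10.1% for R157S against WT, 15.3% and 17.5% for R157S against R157K, 1.22% and 1.08% for R157S against R157F, and 6.04% and 3.08% for R157K against R157F.

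**Figure D3:**
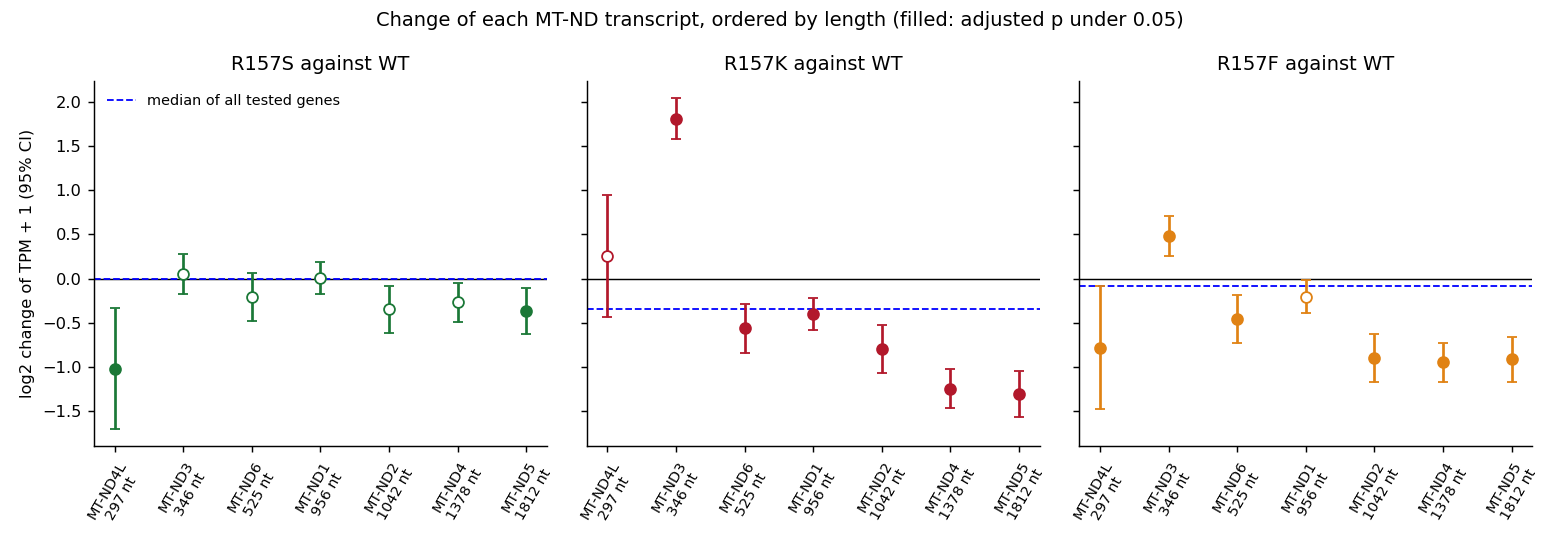
Change of log2(TPM + 1) against WT (vertical axis, with 95% confidence intervals from limma) of each member for R157S, R157K and R157F, in order of transcript length. Filled points passed an adjusted p of 0.05, and the dashed line is the median of all tested genes. MT-ND3 is the only point that rises and passes, at 1.81 with R157K and 0.48 with R157F.

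MT-ND3, a small subunit beside the quinone end of the membrane arm, was higher with R157K than with any other plasmid. It was at 6843, 8738 and 7547 TPM in R157K replicates 1 to 3, 2875, 2882 and 3396 TPM in R157F libraries, 2371, 2164 and 2252 TPM in R157S libraries and 2178, 2356 and 2022 TPM in WT libraries. The R157K and R157F libraries each lay above all WT libraries, while R157S and WT overlapped. MT-ND3 rose 3.53-fold with R157K (log2 1.81, SE 0.11, limma adjusted p = 5.36e-07), which is 2.15 relative to the all-gene median. It rose 1.4-fold with R157F (log2 0.48, SE 0.11, adjusted p = 0.00262). With R157S the difference was 0.05 (95% CI -0.18 to 0.28, adjusted p = 0.735). With smooth trends on transcript GC content and length removed, the MT-ND3 difference was 2.33 with R157K (adjusted p = 4.89e-08) and 1.07 with R157F (adjusted p = 5.81e-05). It was 0.50 with R157S (adjusted p = 0.0125), which then passed too. The removal raised each difference, although 23 nuclear genes of under 600 nt and 38% to 49% GC had median changes of 1.19, 0.31 and 0.01. The fitted trends did not follow that class, so these values are not differences freed of length and GC content. Leaving out any 1 library of the groups compared kept the calls with R157K (1.72 to 1.90) and R157F (0.40 to 0.54).

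MT-ND1, which forms part of the quinone-binding site, varied least among the members, between 1341 and 1959 TPM. It was at 1343, 1575 and 1341 TPM with R157K, 1618, 1704 and 1541 TPM with R157F, 1908, 1888 and 1839 TPM with R157S and 1959, 1830.4 and 1819.6 TPM with WT. The R157K and R157F libraries lay below all WT libraries. MT-ND1 fell by 0.4 with R157K (SE 0.08, limma adjusted p = 0.00116), but relative to the all-gene median this was -0.06, and after median-ratio scaling the difference was 0.02 (adjusted p = 0.903). The differences with R157F (-0.21, 95% CI -0.39 to -0.02, adjusted p = 0.0518) and with R157S (0.01, 95% CI -0.18 to 0.19, adjusted p = 0.957) did not pass. The R157F difference passed without WT replicate 2 (-0.22, adjusted p = 0.0454), when 0.1 replaced 1 as the pseudocount (adjusted p = 0.0476) and with libraries scaled outside the mitochondrial genome (-0.25, adjusted p = 0.0259).

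MT-ND6, a subunit of the central membrane arm, was at 888, 1067 and 864 TPM with R157K, 978, 1108 and 932 TPM with R157F, 1262, 1228 and 1101 TPM with R157S and 1583, 1435 and 1164 TPM with WT. All R157K and R157F libraries lay below the WT libraries, and the R157S libraries overlapped them. MT-ND6 lacks the long poly(A) tail, and the strand setting behind these values is not given. How many of the reads counted for it came from its own strand is therefore unknown. It fell by 0.56 with R157K (SE 0.13, limma adjusted p = 0.00171), or -0.22 relative to the all-gene median, and by 0.46 with R157F (adjusted p = 0.00765). After median-ratio scaling the R157K difference was -0.15 (adjusted p = 0.364). With the GC and length trends removed the differences were -0.25 (adjusted p = 0.0581) with R157K and -0.03 (adjusted p = 0.858) with R157F, and with the replicate block added the R157K difference passed (adjusted p = 0.033). The 23 nuclear genes of under 600 nt and 38% to 49% GC had median changes of 1.19 with R157K and 0.31 with R157F. The fitted trends did not follow that class, so these values are not differences freed of length and GC content. Scaled to the 13 mitochondrial mRNAs, MT-ND6 differed by -0.35 with R157K (adjusted p = 0.0811) and by 0.05 with R157F (adjusted p = 0.794). With R157S the difference was -0.21 (95% CI -0.48 to 0.06, adjusted p = 0.218), and without WT replicate 3 it was -0.33 and passed (adjusted p = 0.0416).

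MT-ND4L, the smallest complex I subunit encoded in mitochondria, was the member whose WT libraries differed most. It was at 10657, 12787 and 11757 TPM with R157K, 5601, 4984 and 6595 TPM with R157F, 5029.9, 4600.5 and 4894 TPM with R157S and 8226, 19737 and 5812 TPM with WT. WT replicate 2 was above every other library, and the WT range took in all R157K libraries. The differences from WT were 0.25 with R157K (SE 0.32, 95% CI -0.44 to 0.95, limma adjusted p = 0.502), -0.79 with R157F (adjusted p = 0.0499) and -1.02 with R157S (adjusted p = 0.0422), so that it fell with R157F and R157S just past the threshold. Without WT replicate 2 they were 0.76 with R157K, which then passed (adjusted p = 0.000787), -0.28 with R157F (adjusted p = 0.131) and -0.52 with R157S (adjusted p = 0.0578). Without WT replicate 3 they were -0.12, -1.16 and -1.4, and those with R157F and R157S passed. Without WT replicate 1 neither of these passed, at -0.91 with R157F (adjusted p = 0.051) and -1.15 with R157S (adjusted p = 0.063). Leaving out R157F replicate 1, 2 or 3 ended the R157F call (-0.77, -0.69 and -0.89), and leaving out R157S replicate 1, 2 or 3 ended the R157S call (-1.05, -0.98 and -1.03). The R157S call also ended without R157K replicate 1 or 3 and without R157F replicate 1, 2 or 3. It ended too with no filter on low values (adjusted p = 0.139) and with only the 2 groups in the model (adjusted p = 0.131). With the replicate block the R157F difference also missed the threshold (adjusted p = 0.0541), as it did with pseudocounts of 0.1 and 10 (adjusted p = 0.0506 and 0.0504). After median-ratio scaling (adjusted p = 0.0901 for R157F and 0.0505 for R157S) and with the GC and length trends removed (adjusted p = 0.383 and 0.159) neither passed. The trend-removed values are uncertain for a transcript this short. Among the other mitochondrial mRNAs, MT-ATP8, with 207 nt the shortest, was at 25397 TPM in WT replicate 2, against 11555 and 9956 TPM in WT replicates 1 and 3.

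MT-ND2, MT-ND4 and MT-ND5 are the antiporter-like subunits that form the proton channels of the membrane arm, and all 3 fell with R157K and R157F. MT-ND4 had the highest TPM of the 3, at 2742, 2971 and 2559.8 TPM with R157K and 3479.8, 3559 and 3149 TPM with R157F. It was at 5358, 5305 and 5673 TPM with R157S and 6494, 7450.45 and 5793 TPM with WT. The 4 groups did not overlap in any pair. It was 2.39-fold lower with R157K (log2 -1.25, SE 0.1, limma adjusted p = 1.57e-06) and 1.94-fold lower with R157F (log2 -0.95, SE 0.1, adjusted p = 0.000114) than with WT. The R157K change was -0.91 relative to the all-gene median. With R157S the difference was -0.27 (95% CI -0.49 to -0.05, adjusted p = 0.0748), and without WT replicate 3 it was -0.35 and passed (adjusted p = 0.0172).

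MT-ND5 was at 1071, 1272 and 1064 TPM with R157K, 1496, 1564 and 1418 TPM with R157F, 2120.0, 2271 and 2129 TPM with R157S and 3016, 3194 and 2307 TPM with WT. These groups did not overlap in any pair either. It fell by 1.31 with R157K (SE 0.12, limma adjusted p = 2.8e-06), which is -0.97 relative to the all-gene median, and by 0.91 with R157F (adjusted p = 0.000217). With R157S it fell by 0.37 (adjusted p = 0.0456), and after median-ratio scaling the difference was -0.34 (adjusted p = 0.0756). That call ended without R157S replicate 1, 2 or 3 (-0.35, -0.4 and -0.36), without WT replicate 1 (-0.32, adjusted p = 0.114) and without WT replicate 2 (-0.28, adjusted p = 0.139), and without WT replicate 3 the difference was -0.51 (adjusted p = 0.00525). It also ended without R157K replicate 1 or 3 and without R157F replicate 1, 2 or 3. The same held with no filter on low values (adjusted p = 0.137) and with only the 2 groups in the model (adjusted p = 0.12).

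MT-ND2 was at 1349.7, 1740.4 and 1323 TPM with R157K, 1346, 1472 and 1252 TPM with R157F, 1909, 1985 and 2071 TPM with R157S and 2529, 2905 and 2214 TPM with WT. All variant libraries lay below the WT libraries. It fell by 0.8 with R157K (SE 0.12, limma adjusted p = 0.000126), or -0.46 relative to the all-gene median, and by 0.9 with R157F (adjusted p = 0.000262). The R157S difference of -0.35 (95% CI -0.62 to -0.08) did not pass (adjusted p = 0.0615). It passed without WT replicate 3 (-0.45, adjusted p = 0.0184), and also once the replicate block was in the model (adjusted p = 0.0412). With the GC and length trends removed, MT-ND2, MT-ND4 and MT-ND5 were still lower with R157K by -0.48, -0.9 and -0.85 and with R157F by -0.49, -0.59 and -0.57, all past the threshold, while with R157S they differed by -0.11, -0.08 and -0.21 and none passed.

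Between variants, MT-ND3 separated R157K from the other variants. R157S libraries had less of it than R157K libraries (log2 -1.76, SE 0.11, limma adjusted p = 2.16e-06) and R157K libraries had more than R157F libraries (1.33, SE 0.11, adjusted p = 6.29e-05), or -2.1 and 1.6 relative to the all-gene median. MT-ND4L was lower with R157S than with R157K (-1.27, adjusted p = 0.00547) and higher with R157K than with R157F (1.04, adjusted p = 0.0288), or -1.61 and 1.31 relative to that median. MT-ND4 was higher with R157S than with R157K (0.98, adjusted p = 2.25e-05) and than with R157F (0.68, adjusted p = 0.00762), the first being 0.65 relative to the median. MT-ND5 followed it, by 0.94 (0.61 relative to the median) and 0.54. MT-ND1, MT-ND2 and MT-ND6 were higher with R157S than with R157K by 0.41, 0.45 and 0.35, but by 0.07, 0.11 and 0.02 relative to the all-gene median, and after median-ratio scaling none of these 3 passed and the MT-ND6 difference was -0.03. MT-ND6 also missed the threshold there without R157K replicate 1 or 3 (0.32 and 0.3) and without R157S replicate 1 or 2 (0.31 and 0.33).

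Between R157S and R157F, 5.42% of all tested genes passed, the lowest share of the 6 comparisons. MT-ND2 (0.55, adjusted p = 0.0297) and MT-ND5 (0.54, adjusted p = 0.028) were higher and MT-ND3 (-0.43, adjusted p = 0.0406) was lower with R157S in the limma fit, and each of these 3 calls ended when any 1 library of the 2 groups was left out, at values of 0.50 to 0.61, 0.51 to 0.58 and -0.47 to -0.35. That of MT-ND4 ended without R157F replicate 3 (0.63, adjusted p = 0.0593) and without R157S replicate 3 (0.65, adjusted p = 0.0529). The MT-ND3 call also ended with the replicate block (adjusted p = 0.0592). With only these groups in the model, MT-ND1 (0.21, adjusted p = 0.0163) and MT-ND6 (0.25, adjusted p = 0.0452) passed as well. Against R157F, R157K had lower MT-ND4 (-0.3, adjusted p = 0.042) and MT-ND5 (-0.4, adjusted p = 0.0265), but these were -0.03 and -0.13 relative to the all-gene median, and after median-ratio scaling the MT-ND4 difference was 0.01. Both calls ended without R157F replicate 1 (-0.28 and -0.4) or 2 (-0.27 and -0.36) and without R157K replicate 1 (-0.3 and -0.36) or 3 (-0.25 and -0.35). The MT-ND4L call between R157K and R157F ended without R157F replicate 1 or 2 (1.03 and 0.94) and without R157K replicate 2 or 3 (0.98 and 1.04), and MT-ND1 was lower with R157K than with R157F only in some settings, such as without R157K replicate 2 (-0.27, adjusted p = 0.0298).

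MT-ND4L and MT-ND4 are read from a shared mRNA, so the ratio of their TPM was followed by library. It was 3.89, 4.3 and 4.59 with R157K, 1.61, 1.4 and 2.09 with R157F, 0.939, 0.867 and 0.863 with R157S and 1.27, 2.65 and 1 with WT. The R157K libraries lay above and the R157S libraries below all others, and R157F and WT overlapped. MT-ND6 over MT-ND5, the tail-to-tail neighbours, was 0.827 ± 0.0132 with R157K, 0.673 ± 0.0305 with R157F, 0.551 ± 0.0399 with R157S and 0.493 ± 0.0391 with WT (SD, n = 3 each). The strand from which the reads counted for MT-ND6 came is not known, which limits this ratio. MT-ND3 over MT-ND2 was 5.26 ± 0.381 with R157K, 2.27 ± 0.395 with R157F, 1.14 ± 0.0884 with R157S and 0.862 ± 0.0509 with WT. Each ratio sets a shorter transcript over a longer one (297 over 1378 nt, 525 over 1812 nt and 346 over 1042 nt). Shorter nuclear genes also had higher changes with R157K against WT (Spearman's rho -0.45 between length and change over 12427 protein-coding genes). The part of length in these ratios was not tested. In exact permutation tests of the 4 groups over all 369600 arrangements of the libraries, p was 0.00188 for MT-ND4L over MT-ND4, 0.00013 for MT-ND6 over MT-ND5 and 6.49e-05 for MT-ND3 over MT-ND2 (Benjamini-Hochberg adjusted over these 3 ratios 0.00188, 0.000195 and 0.000195). Between pairs of groups the exact two-sided permutation p was 0.1, the smallest that 3 libraries against 3 can give, except for MT-ND4L over MT-ND4 with R157F against WT (p = 0.7) and MT-ND6 over MT-ND5 with R157S against WT (p = 0.2). The 3 ratios were chosen after the values had been seen, so these p-values describe the separation of the groups and cannot test it. The adjustment covers only the chosen ratios and not the other pairs of members.

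**Figure D4:**
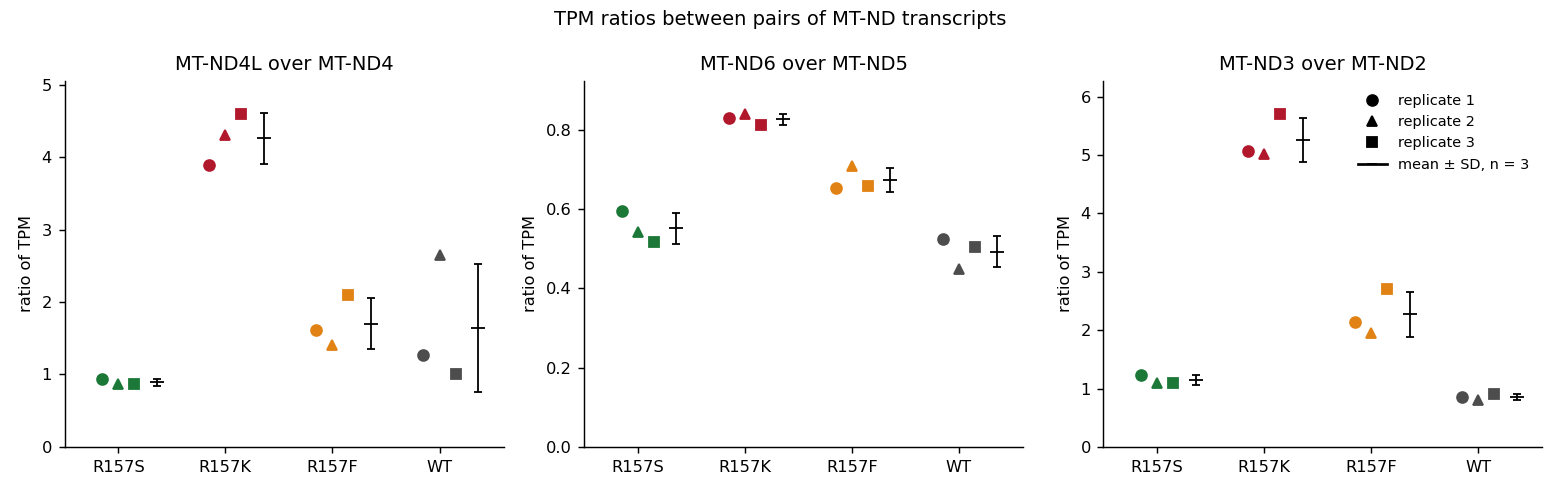
Ratio of TPM (vertical axes, from 0) between MT-ND4L and MT-ND4, MT-ND6 and MT-ND5, and MT-ND3 and MT-ND2 in the 12 libraries, with the mean ± SD of each plasmid. R157K libraries are highest in all 3 panels, at 3.89 to 4.59 in the first, 0.812 to 0.839 in the second and 5.02 to 5.7 in the third. In every panel the shorter transcript is divided by the longer, and the part of length was not tested.

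Over the 12 libraries 5 members varied together, and MT-ND3 and MT-ND4L each differed from them. Pearson's r of log2(TPM + 1) was between 0.79 and 0.99 for every pair among MT-ND1, MT-ND2, MT-ND4, MT-ND5 and MT-ND6, highest for MT-ND4 with MT-ND5. MT-ND3 ran against these 5 (r from -0.86 with MT-ND1 to -0.58 with MT-ND2), and MT-ND4L showed little relation to them (-0.39 to 0.18) and 0.54 with MT-ND3. These values are descriptions over 12 libraries that share a TPM total and fall into 4 groups. The mean profile of the members averages their standardised log2(TPM + 1), and so mixes MT-ND3 and MT-ND4L with the 5 that varied together. Genes outside the mitochondrial genome with a mean of at least 10 TPM were set against it by Pearson's r. The closest were PRKACB (r = 0.987), HPRT1 (0.978), UBLCP1 (0.971), TMEM167A (0.969) and DDX6 (0.968). MTFR2, with a mean of 9.79 TPM, was at 0.978 and MT-RNR2, the large mitochondrial rRNA, at 0.976. For MT-ND3 alone, a choice made after its values were seen, the closest of these genes were ERH (0.989), SEC61B and SNRPF (0.988 each), NDUFAB1, a nuclear-encoded complex I subunit (0.987), and COX7A2, a complex IV subunit (0.986).

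Longer transcripts tended to have lower changes with R157K and R157F, among the members and among nuclear genes. Spearman's rho between length and change over the 7 members was -0.93 for R157K, -0.71 for R157F and -0.18 for R157S against WT. Over 12427 protein-coding genes outside the mitochondrial genome it was -0.45, -0.3 and -0.25, and over the 37 nuclear-encoded complex I subunits it was -0.53, -0.34 and -0.17. Genes are not independent replicates, so no p is given. With R157K the median change was 0.76 in the 26 protein-coding genes shorter than 400 nt, 1.21 in 86 genes of 400 nt to under 600 nt, 0.45 in 553 genes of 900 nt to under 1200 nt and 0.06 in 1999 genes of 1200 nt to under 2000 nt. Members lie low in GC content, and among genes with a GC content of 38% to 49% the median with R157K was 1.19 in 23 genes shorter than 600 nt (upper quartile 1.47) and -0.43 in 841 genes of 900 nt to under 2000 nt (quartiles -0.73 and -0.11). Beside these, MT-ND3 at 1.81 lay above and MT-ND2 at -0.8, MT-ND4 at -1.25 and MT-ND5 at -1.31 lay below the quartiles of their class, and MT-ND1 at -0.4 lay within it. MT-ND6 at -0.56 lay below the lower quartile of the shorter class (-0.004), and MT-ND4L at 0.25 lay within that class. With R157F the same classes had medians of 0.31 and -0.36, with quartiles of -0.24 and 0.58 and of -0.63 and -0.13. MT-ND3 at 0.48 lay within its class and MT-ND2, MT-ND4 and MT-ND5 (-0.9, -0.95 and -0.91) below theirs. MT-ND6 (-0.46) and MT-ND4L (-0.79) lay below the shorter class and MT-ND1 (-0.21) within the longer one. Class limits were chosen after the values had been seen.

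**Figure D5:**
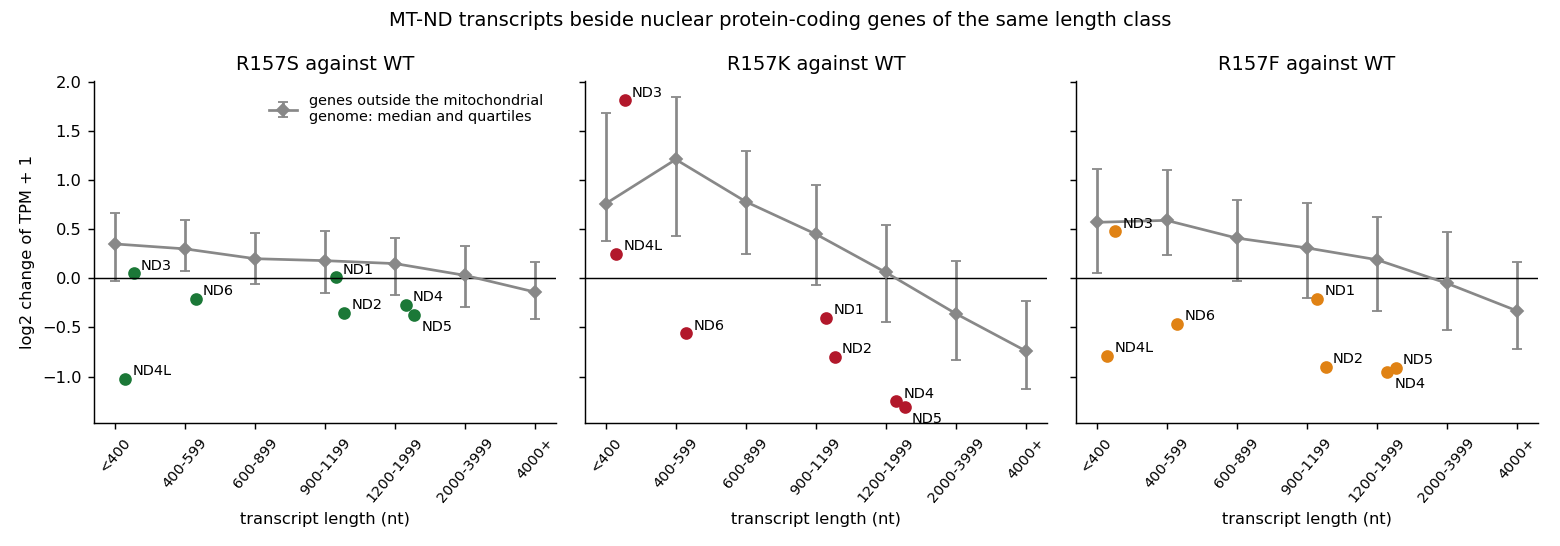
Change of log2(TPM + 1) against WT (vertical axis) by transcript length class in nt (horizontal axis). Grey diamonds and bars are medians and quartiles of protein-coding genes outside the mitochondrial genome, and coloured points are the MT-ND transcripts. With R157K the nuclear medians run from 1.21 at 400 nt to under 600 nt to -0.74 at 4000 nt and above, MT-ND3 lies at 1.81, and the other members lie below the medians of their classes.

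Nuclear-encoded complex I subunits did not share the direction of most mitochondrial ones. Of 37 tested, 28 rose and 4 fell with R157K (median 1.29, against -0.34 for all tested genes), 23 rose and 5 fell with R157F (median 0.51, against -0.08), and 11 rose and 1 fell with R157S (median 0.25, against -0.01). Of all tested genes, 17.3% rose and 46.2% fell with R157K, 24.4% and 33.8% with R157F, and 7.6% and 12.8% with R157S. Short nuclear genes as a class also rose with R157K, by medians of 1.21 at 400 nt to under 600 nt and 0.78 at 600 nt to under 900 nt. Genes of 2000 nt to under 4000 nt had a median of -0.36. NDUFA1, NDUFS6 and NDUFC2, named below, have transcripts of 766, 1082 and 2518 nt. The part of length in these counts was not tested. With R157K, NDUFA1, a membrane-arm subunit, was at 531 ± 82.6 TPM against 134 ± 21.7 TPM with WT (log2 1.98, SE 0.14, limma adjusted p = 8.86e-07), or 2.32 relative to the all-gene median. NDUFS6 and NDUFC2 rose by 1.78 and 1.6 (2.12 and 1.94 relative to the median). NDUFS1, which carries iron-sulfur clusters of the matrix arm and has an annotated transcript of 11819 nt, was at 49.8 ± 2.29 TPM against 113 ± 6.25 TPM with WT (log2 -1.17, adjusted p = 9e-07). With R157F, NDUFC2 rose by 1.03 and NDUFA13 by 1.56. With R157S, NDUFB7 rose by 0.85 (adjusted p = 0.0224) and NDUFA11 by 0.68 (adjusted p = 0.0245). Against R157K, R157S had 3 subunits higher and 28 lower, and against R157F 3 higher and 6 lower, while R157K had 23 higher and 3 lower than R157F. Of all tested genes, 42.2% were higher and 7.9% lower in the first of these comparisons, 4.31% and 1.11% in the next, and 3.3% and 26.4% in the last.

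Of 18 complex I assembly factors, 4 rose and 6 fell with R157K, 3 rose and 8 fell with R157F, and 0 rose and 2 fell with R157S, beside 17.3% and 46.2%, 24.4% and 33.8%, and 7.6% and 12.8% of all tested genes. NDUFAF8 was at 42.5 ± 4.66 TPM with R157K and 25.5 ± 1.11 TPM with R157F, against 13.4 ± 3.83 TPM with WT (log2 1.62 and 0.91, limma adjusted p = 7.57e-06 and 0.00105). NDUFAF7, a methyltransferase needed for assembly, was at 10 ± 0.14, 7.14 ± 0.206 and 8.56 ± 1.18 TPM with R157S, R157K and R157F, against 14.1 ± 1.43 TPM with WT (log2 -0.45, -0.89 and -0.66, all past the threshold).

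Of 27 tested genes for transcription and RNA processing in mitochondria, 4 rose and 17 fell with R157K (median -0.8, or -0.46 relative to all tested genes), 6 rose and 15 fell with R157F (median -0.47) and 2 rose and 9 fell with R157S (median -0.27), beside 17.3% and 46.2%, 24.4% and 33.8%, and 7.6% and 12.8% of all tested genes. LRPPRC and SLIRP form a complex that stabilises mitochondrial mRNAs, and they moved apart with R157K. LRPPRC was at 42.2 ± 3.85 TPM with R157K, 56 ± 1.94 TPM with R157F and 69.6 ± 7.42 TPM with R157S, against 99.8 ± 15.4 TPM with WT (log2 -1.22, -0.81 and -0.51, limma adjusted p = 5.23e-06, 0.000357 and 0.0226). SLIRP was at 339 ± 53.3 TPM with R157K, against 123 ± 9.36 TPM with WT (log2 1.45, adjusted p = 2.02e-06). The annotated transcripts of LRPPRC and SLIRP have 6335 and 408 nt. Nuclear genes of 4000 nt and above had a median of -0.74 with R157K, and those of 400 nt to under 600 nt a median of 1.21. FASTKD2 and GRSF1, RNA-binding proteins of mitochondrial RNA granules, fell by 1.35 and 0.95 with R157K and by 0.96 and 0.56 with R157F. Their transcripts have 3188 and 6666 nt, and the part of length in the changes of this list was not tested. TRMT10C, a subunit of the RNase P that cuts the 5′ ends of mitochondrial tRNAs, fell by 0.98 with R157F and by 0.71 with R157S. Of 17 genes that maintain mitochondrial DNA, 2 rose and 8 fell with R157K, 1 rose and 5 fell with R157F and 1 rose and 3 fell with R157S, and the same all-gene shares apply. With R157K and R157S these counts lie near those shares, while with R157F fewer genes rose than the share of all tested genes. Among these, the nuclease MGME1 fell by 0.69, 0.59 and 0.42 with R157K, R157F and R157S. DNA copy number was not measured here.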

How the data were processed

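Poly(A) RNA was sequenced from 12 libraries with the Illumina Stranded mRNA Prep kit, per the labels' protocols. The authors deposited TPM for each gene in each library. The submitters' processing notes name RSEM and no version. Aligner, genome build, annotation and strand setting are details not given in the sources used here. Each library's values sum to 999999.03 to 1000000.89, no 2 libraries held identical values, and each of the 12 columns was matched by name to its sample.

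Values were analysed as log2(TPM + 1) with limma 3.58.1 in R 4.3.3, with 1 coefficient per plasmid, 8 residual degrees of freedom and a variance trend on mean expression, after a check on simulated data. A change is the value of the group named first less that of the group it is set against. Ratios were tested with exact permutations in Python 3.11.15. Gene lengths, GC content and coordinates came from GENCODE 29, which may not be the authors' annotation, and 58174 of 63241 gene identifiers matched it. Length and GC content are those of 1 annotated transcript per gene. Transcripts tagged as principal were preferred, then those tagged as basic, then the longest. That transcript need not be the one expressed in these cells. The trend removal used splines with 5 degrees of freedom on GC content and log2 length per library, over 14220 genes. For the short members MT-ND3, MT-ND4L and MT-ND6 it raised the R157K difference from WT, although nuclear genes of like length and GC content mostly rose. Their trend-removed values are uncertain for that reason.

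All 7 members were named. From each gene list, counts are given with examples among the 4 called genes of lowest adjusted p in each comparison with WT, and for likeness the 5 genes of highest r with a mean of at least 10 TPM. The members and lists were chosen with earlier results of these data known. Some genes share reads with close copies or overlapping genes and are uncertain.

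The labels give the replicate number under a batch tag. The main fit took no account of it, and pairing by number across plasmids entered only the alternative called the replicate block. Deviations from group means correlated at -0.13 to 0.39 for the 18 same-numbered pairs (median -0.03, over 0.1 in 2 of them) and -0.35 to 0.32 for the 36 others. Alternatives were other pseudocounts, scalings and filters, fits of 2 groups, the replicate block, trend removal, and leaving out each library.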

Additional observations from a re-analysis of the deposited data

How the results depend on the processing

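The count of MT-ND transcripts called for R157S against WT was 2, and it was 0 with no filter on low values, after median-ratio scaling, scaled to the 13 mitochondrial mRNAs and with only the 2 groups in the model. It was 1 with the GC and length trends removed, without or with the replicate block, and 0 to 5 with 1 library left out. Leaving out a library of another plasmid changes only the shared spread there. For R157S against R157K it was 7, and 4 after median-ratio scaling. For R157S against R157F it was 4, and 0 with no filter, 1 after median-ratio scaling, 0 scaled to the 13 mitochondrial mRNAs, 6 with only the 2 groups in the model and 0 to 4 with 1 library left out. For R157K against R157F it was 4, and 1 with no filter, 2 after median-ratio scaling, 6 scaled to the 13 mitochondrial mRNAs and 1 to 4 with 1 library left out. With 1 library left out it lay between 6 and 7 in the comparison of R157K with WT, between 5 and 6 in that of R157F with WT and between 6 and 7 in that of R157S with R157K, and all 7 passed the test of the 4 plasmids whichever library was left out, against 6 with no filter, 6 scaled to the 13 mitochondrial mRNAs and 5 after median-ratio scaling.

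Single differences changed sign in 19 of 672 cases. Among those that kept their sign, the adjusted p rose past the threshold in 102 and fell below it in 17, whatever the size of the difference. After median-ratio scaling, MT-ND1 was at 0.02 and 0.12 for R157K against WT and R157F, MT-ND6 at -0.03 for R157S against R157K and at 0.21 for R157K against R157F, and MT-ND4 at 0.01 in the last comparison. Scaled to the 13 mitochondrial mRNAs, of which the members are part, MT-ND4 and MT-ND6 were at 0.07 and 0.12 for R157S against WT, MT-ND1 and MT-ND6 at 0.31 and 0.05 for R157F against WT, and MT-ND2 at -0.2 for R157K against R157F. Scaled outside the mitochondrial genome, MT-ND1 was at -0.02 for R157S against WT. With the trends removed, MT-ND6 was at 0.09 for R157S against WT, with or without the replicate block. With 1 library left out, MT-ND1 for R157S against WT lay between -0.01 and 0.04, MT-ND3 in that comparison between -0.003 and 0.11, MT-ND4L for R157K against WT between -0.12 and 0.76, and MT-ND2 for R157K against R157F between -0.02 and 0.18. The sign changed for MT-ND1 without R157S replicate 1 (-0.0041), WT replicate 2 or WT replicate 3, for MT-ND3 and MT-ND4L without WT replicate 3, and for MT-ND2 without R157K replicate 2. The cause of these changes was not tested. The replicate block alone changed no call of a member other than those given with the results. Added to the trend removal, it also let MT-ND5 pass for R157S against R157F (adjusted p = 0.0308, against 0.051 without it) and R157K against R157F (0.0337, against 0.0733), and MT-ND4L missed the threshold for R157K against R157F (0.0567, against 0.0354).

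In the whole table, the number of genes called was 3002 for R157S against WT, and 590 with no filter, 87 scaled to the 13 mitochondrial mRNAs and 9 with only the 2 groups in the model. For R157S against R157F it was 798, and 344, 24 and 4615 in these settings and 339 after median-ratio scaling. For R157K against R157F it was 4370, and 1342 after median-ratio scaling and 7445 scaled to the 13 mRNAs, and for R157S against R157K it was 7371, and 4826 after median-ratio scaling. With the trends removed the counts against WT were 862 (R157S), 6037 (R157K) and 4089 (R157F), where the main setting gave 9359 for R157K and 8571 for R157F. Among the variants it was then 4070 (R157S, R157K), 498 (R157S, R157F) and 1648 (R157K, R157F). With the replicate block added to the trend removal these 6 counts were 677, 5934, 3890, 3954, 329 and 1450. With 1 library left out the number ranged from 39 (without R157S replicate 2) to 5761 (without WT replicate 3) for R157S against WT, from 33 (without R157F replicate 3) to 3300 (without WT replicate 2) for R157S against R157F and from 2433 (without R157F replicate 1) to 6041 (without WT replicate 2) for R157K against R157F. Values carry no depth, so counting error could not be separated from other spread, and with 3 libraries against 3 no single value can reach an exact two-sided permutation p under 0.1.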
